A study of Mus musculus with 96 samples.

Results

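Gas5, Snhg1, Snhg3, Snhg4, Snhg5, Snhg6, Snhg8 and Snhg12 are noncoding genes whose introns hold small nucleolar RNAs (snoRNAs). They were taken by symbol from the deposited table, and all 8 were among its 24057 genes. The table gives single-cell RNA-seq of EL4, a mouse T-lymphoma line from a C57BL/6 N mouse (strain label C57BL/6), in which CTCF had been knocked down to ask how variation between cells changes. The 2 WT cultures carried a short hairpin RNA against luciferase (shLuc #1 and shLuc #2; genotype label wild type), and the 2 CTCF-KD cultures carried one against Ctcf (shCTCF #1 and shCTCF #2; genotype label CTCF knockdown). The methods list 2 hairpin sequences against Ctcf and do not state whether the 2 cultures differ in theirs. A difference between experiments may thus also be one between hairpins. All cultures were infected with viral particles, so no culture was of uninfected cells, and GFP+ cells were sorted. The cultures numbered 1 made up experiment 1 and those numbered 2 experiment 2. From each, 24 cells judged of highest quality were sequenced from 1 capture circuit, so circuit, culture and hairpin cannot be told apart within an experiment. All cells come from 1 line, and a culture, not a cell, is the replicate.

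Of the 96 cells, 95 with at least 3000 genes were kept (47 WT and 48 CTCF-KD). The cell left out, from shLuc #2, held 81 genes and no read of any of the 8 hosts. Whole reads recovered from the TPM steps came to a median per cell of 247586 in shLuc #1, 230477 in shLuc #2 and 234260 in shCTCF #1. The median was lowest in shCTCF #2, at 131098. The study reported that Ctcf RNA by qPCR and CTCF protein by Western blot were reduced in both knockdown cultures. In the mean Ctcf TPM of the kept cells, a reduction was seen in experiment 1 only. Mean Ctcf was 15.96 TPM in shCTCF #1 against 60.3 in shLuc #1. It was 44.9 ± 50.01 TPM (SD over cells) in shCTCF #2 against 37.1 ± 45.5 in shLuc #2, a difference that was not tested. For the 4 cultures together, log2(mean TPM + 1) of Ctcf differed by -0.79 ± 0.66 (SE) between CTCF-KD and WT. The adjusted p was 0.815 by limma with Benjamini-Hochberg adjustment. Differences of the hosts in mean level are therefore given for each experiment as well. The 6 T-cell markers in the table summed to 7002 and 7098 TPM in WT and to 5112 and 4809 TPM in CTCF-KD cells, and the part of this in the results below was not tested. The 4 B-cell markers summed to at most 4.13 TPM, and the 4 myeloid markers to between 31.3 and 52.1 TPM, with 2 or 3 of them above 0 in a culture and Lyz2 at 0 throughout.

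Many snoRNAs, though not all, guide a chemical mark onto ribosomal or spliceosomal RNA. Of these guides, box C/D snoRNAs direct methylation of a ribose and box H/ACA snoRNAs direct the change of uridine to pseudouridine. Most mammalian snoRNAs are cut out of the introns of a host gene after splicing, while the spliced exons form a separate RNA. In the hosts described here that RNA has no long reading frame, and several of these spliced RNAs are known to be degraded by nonsense-mediated decay on ribosomes. Gas5 RNA was first known from growth-arrested cells. Its transcript, like those of other hosts, belongs to the class that starts with a terminal run of pyrimidines, whose translation follows growth signals. In T cells Gas5 is known for its link to growth arrest.

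The start sites are shown because a pyrimidine run at the start is known from transcripts of such hosts. RefSeq promoter entries of build GRCm38.p6 were found for 6 of the 8 hosts, with 7 start sites in all. Each line gives 40 bases, 20 before the annotated start and 20 from it on, and capitals mark the longest unbroken run of C and T on the coding strand.
Gas5 at chr1:161034581-161034620, plus strand: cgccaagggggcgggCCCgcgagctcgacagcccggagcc
Gas5, second start, at chr1:161035146-161035185, plus strand: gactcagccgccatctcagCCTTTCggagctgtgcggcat
Snhg1 at chr19:8723467-8723506, plus strand: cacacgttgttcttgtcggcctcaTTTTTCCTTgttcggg
Snhg3 at chr4:132353667-132353706, minus strand: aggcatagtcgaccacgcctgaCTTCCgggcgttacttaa
Snhg5 at chr9:88522878-88522917, minus strand: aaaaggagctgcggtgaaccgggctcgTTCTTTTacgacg
Snhg8 at chr3:123508317-123508356, minus strand: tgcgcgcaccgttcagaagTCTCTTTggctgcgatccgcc
Snhg12 at chr4:132308658-132308697, plus strand: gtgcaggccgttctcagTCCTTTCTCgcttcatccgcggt
The longest runs were 9 bases in Snhg1 and Snhg12, 7 in Snhg5 and Snhg8, 6 at the second Gas5 start, 5 in Snhg3 and 3 at the first Gas5 start. Over all 32851 promoter windows of the same 40 bases, the median of the longest run was 5 and 37.5% held a run of 6 or more. The runs at the second Gas5 start, in Snhg8 and in Snhg12 spanned the annotated start. In Snhg1, Snhg3 and Snhg5 the run began after the annotated start, and at the first Gas5 start it ended before it. These matches describe the letters only.

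The snoRNAs inside the hosts are shown because some of them are also listed in the table as genes of their own. The first 4 are box C/D snoRNAs from within Gas5, Snhg1, Snhg6 and Snhg12, taken from GENCODE transcripts of GRCm38, and capitals mark the first TGATGA (C box) and the last CTGA (D box) on the printed strand. The last is the box H/ACA snoRNA of Snhg8, with its last ACA in capitals.
Snord47 in Gas5, chr1:161038082-161038158, plus strand: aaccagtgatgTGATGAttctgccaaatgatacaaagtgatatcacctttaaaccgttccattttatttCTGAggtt
Snord22 in Snhg1, chr19:8725866-8725991, plus strand: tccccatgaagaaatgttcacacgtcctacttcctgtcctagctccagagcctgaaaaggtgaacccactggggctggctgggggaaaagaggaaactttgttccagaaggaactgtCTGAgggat
Snord87 in Snhg6, chr1:9942463-9942549, minus strand: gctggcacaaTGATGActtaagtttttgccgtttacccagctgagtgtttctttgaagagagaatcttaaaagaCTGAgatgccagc
Snord99 in Snhg12, chr4:132310691-132310764, plus strand: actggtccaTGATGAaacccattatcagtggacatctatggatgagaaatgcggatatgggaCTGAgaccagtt
Snora24 in Snhg8, chr3:123507937-123508066, minus strand: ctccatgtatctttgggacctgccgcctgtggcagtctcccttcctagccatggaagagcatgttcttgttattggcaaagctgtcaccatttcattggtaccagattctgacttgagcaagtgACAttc
The letters TGATGA were present in 3 of the 4 box C/D sequences, and in 75.5% of 98 GENCODE snoRNA transcripts with a numbered Snord name. CTGA was present in all of them. In Snora24 the last ACA stood 3 bases from the end, the usual place in this class. The SMARTer protocol primes on polyA tails, which mature snoRNAs lack. The entries of the 4 box C/D snoRNAs printed here held few reads in the 95 cells, 52 for Snord47, 96 for Snord22, 59 for Snord87 and 21 for Snord99. Of the snoRNAs within the hosts, Snora74a in Snhg4, not printed, held the most, 133 reads in 12 cells.

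Gas5 was the most abundant of the 8 hosts. Its mean over the 4 cultures was 694 TPM, rank 221 of the 13334 genes with a value in any kept cell. It was followed by Snhg1 at 539 TPM, Snhg6 at 448, Snhg5 at 237, Snhg4 at 123, Snhg3 at 104, Snhg12 at 58.5 and Snhg8 at 42.7. TPM is a level per length, and the comparison between genes holds for the lengths used, which are given below. Between neighbours in this order only Snhg6 and Snhg5 had ranges over the 4 cultures that did not overlap. Gas5 exceeded Snhg1 in all 4 cultures, although the ranges overlapped, whereas Snhg4 exceeded Snhg3 in 2 of 4 and Snhg12 exceeded Snhg8 in 2 of 4. These last pairs had no fixed order over the cultures.

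Reads were more unequal than TPM, because the genes were scaled by very different lengths. Gas5 held 17390 reads, 63.5% to 72.7% of all reads of the 8 hosts in a culture, but 27.5% to 35.03% of their summed TPM. The length that the TPM steps imply, if the smallest step is 1 read, was 2554 bases for Gas5. GENCODE lists 25 Gas5 transcripts of 346 to 2556 bases with a median of 629, and the longest of them contains 6 of the 9 snoRNAs annotated within Gas5, that is, it retains introns. At the median length the mean would be 2817 TPM. For Snhg3 (437 bases) and Snhg12 (606 bases) the implied length was that of an annotated transcript.

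Snhg8 was the opposite case. Its implied length was 130 bases, below all 3 annotated transcripts, which run from 448 to 776 bases, and equal to the 130 bases of Snora24, printed above. Its 42.7 TPM rested on 53 reads in 27 cells, and would be 10.5 TPM at the median annotated length. Whether those reads lie on the snoRNA or on the spliced exons cannot be told from a table of genes. Of 715 genes with a single annotated transcript, 44.6% had an implied length within 1% of the annotated one, so an implied length is an estimate.

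**Figure D1:**
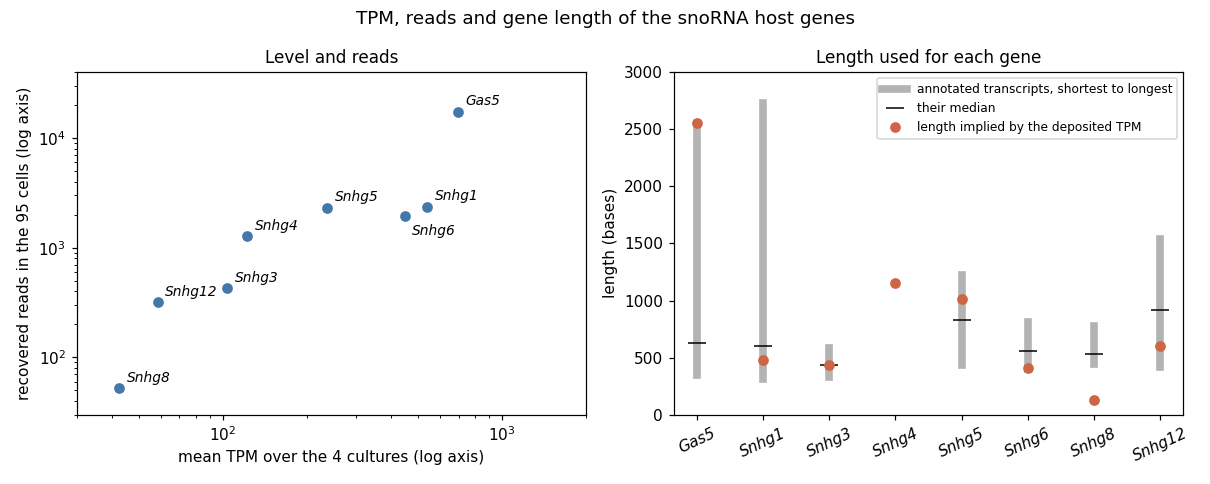
Left, recovered reads in the 95 cells against mean TPM over the 4 cultures, both on log axes, with 1 point per host gene. Right, the length implied by the deposited TPM (points) against the range and median of GENCODE transcript lengths (bars and ticks; Snhg4 had no GENCODE match). Gas5 stands at the top of its range at 2554 bases and Snhg8 below its range at 130 bases.

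Gas5 was read in each of the 95 kept cells. In shLuc #1 it ran from 203 TPM to 1678 TPM with a median of 555, and in shLuc #2 from 72.9 to 1455 with a median of 491. In shCTCF #1 it ran from 173 to 1414 TPM with a median of 522, and in shCTCF #2 from 261 to 4875 with a median of 780. The cells of the 4 cultures overlapped broadly, and the highest values were in shCTCF #2. Mean Gas5 in WT was 650 ± 342 TPM (SD, n = 24 cells) for culture 1 and 563 ± 404 TPM (SD, n = 23 cells) for culture 2. After knockdown it was 582 ± 259 TPM for culture 1 and 981 ± 935 TPM for culture 2 (SD, n = 24 cells each). shCTCF #1 lay between the WT cultures and only shCTCF #2 lay above them. A single cell, with 207 Gas5 reads, carried 20.7% of the summed Gas5 TPM of shCTCF #2, and without it the mean of that culture was 811 TPM.

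On the scale of log2(mean TPM + 1), Gas5 differed by 0.32 ± 0.35 (SE) between CTCF-KD and WT, with n = 2 cultures per condition and an adjusted p of 0.868 by limma with Benjamini-Hochberg adjustment. Experiment 1 gave -0.16 and experiment 2 gave 0.80, so the sign differed between experiments, and without shCTCF #2 the combined difference was -0.055. Of 11980 genes tested by limma, 0 passed an adjusted p of 0.05, a share of 0%, while 574 genes were higher and 338 lower at an unadjusted p under 0.05. None of the 8 hosts passed. For a single value, 4 cultures split evenly allow an exact permutation test (two-sided) no p smaller than 0.333.

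Snhg1, which hosts a cluster of box C/D snoRNAs on chromosome 19 (8723487 to 8726326, plus strand), was the next most abundant. It ran from 13.99 to 873 TPM with a median of 331 in shLuc #1, and from 0 to 1791 with a median of 413 in shLuc #2. In the CTCF-KD cultures it ran from 0 to 1456 TPM with a median of 391 in shCTCF #1, and from 161 to 3791 with a median of 668 in shCTCF #2. Within each experiment mean Snhg1 was higher after CTCF knockdown, at 467 TPM against 305 in experiment 1 and 832 against 550 in experiment 2. The difference was nearly the same in both, 0.61 and 0.60 on the log2 scale. The conditions still overlapped, since shLuc #2 lay above shCTCF #1. The combined difference of 0.60 ± 0.43 (SE) had an adjusted p of 0.788 by limma, or 0.278 with the experiment as a block. It was 0.18 without shLuc #1, 0.19 without shCTCF #2 and 1.03 without shLuc #2, and 1.02 without shCTCF #1.

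Snhg6, the host of Snord87 on chromosome 1 (9942025 to 9944118, minus strand), followed Snhg1 in level. In shLuc #1 it ran from 95.98 to 1252 TPM with a median of 533, and in shLuc #2 from 0 to 954 with a median of 382. In shCTCF #1 it ran from 60.4 to 980 TPM (median 375), and in shCTCF #2 from 50.5 to 722 (median 359). It was the only host with a lower mean in the CTCF-KD culture of each experiment, by -0.38 and -0.17 on the log2 scale. shCTCF #1, at a mean of 433 TPM, was above shLuc #2, at 421, so the conditions overlapped. The combined difference was -0.27 ± 0.31 (SE), with an adjusted p of 0.873 by limma. It ran from -0.48 without shLuc #2 to -0.064 without shLuc #1, and was -0.17 without shCTCF #2.

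Snhg5, which hosts Snord50a and Snord50b on chromosome 9 (88521052 to 88522897, minus strand), stood higher in both CTCF-KD cultures. It ran from 0 to 605 TPM with a median of 122 in shLuc #1, and from 0 to 613 with a median of 117 in shLuc #2. In shCTCF #1 it ran from 31.2 to 547 TPM with a median of 244, and in shCTCF #2 from 12.1 to 1042 with a median of 258. The WT means were close, 184 TPM in both cultures, and the CTCF-KD means of 243 and 335 TPM lay above them. The difference was 0.40 in experiment 1 and 0.86 in experiment 2, or 0.63 ± 0.33 (SE) together, with an adjusted p of 0.719 by limma and 0.333 by the exact permutation test, the smallest p possible. Without shCTCF #2 the difference was 0.40.

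Snhg3 lies near Snhg12 on chromosome 4 (132351933 to 132353686, minus strand) and hosts Snora73a and Snora73b, box H/ACA snoRNAs. It ran from 0 to 377 TPM with a median of 20.2 in shLuc #1, and from 0 to 316 with a median of 0 in shLuc #2. In shCTCF #1 it ran from 0 to 464 TPM with a median of 61.002, and in shCTCF #2 from 0 to 619 with a median of 178. Its WT means of 62.1 and 55.5 TPM lay below its CTCF-KD means of 95.3 and 202 TPM, with no overlap. The difference of 1.23 ± 0.47 (SE) on the log2 scale came to 0.61 in experiment 1 and 1.85 in experiment 2, with an adjusted p of 0.627 by limma, an unadjusted p of 0.0384 and an exact permutation p of 0.333. Without shCTCF #2 the difference was 0.69.

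Snhg12 (chromosome 4, 132308678 to 132311024, plus strand) hosts Snora16a, Snora44, Snora61 and Snord99. It ran from 0 to 334 TPM in shLuc #1 and from 0 to 323 in shLuc #2, with a median of 0 in each. In shCTCF #1 it ran from 0 to 200 TPM (median 19.4), and in shCTCF #2 from 0 to 382 (median 92.9). The means of 25.97, 51.4, 54.98 and 102 TPM left no overlap between the conditions, though shCTCF #1 exceeded shLuc #2 by only a small margin. In shLuc #1 a single cell carried 53.6% of the summed Snhg12 TPM, and without it the mean was 12.6 TPM. The difference was 1.05 in experiment 1 and 0.97 in experiment 2, or 1.01 ± 0.56 (SE) together, with an adjusted p of 0.745 by limma and an exact permutation p of 0.333. It was 0.53 without shLuc #1 and 0.57 without shCTCF #2, and 1.49 without shLuc #2.

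In mean TPM, Snhg4, the host of Snora74a, differed more between experiments than between conditions. In the mean over cells of log2(TPM + 1), Snhg4 was at 2.55 and 4.41 in WT and 4.92 and 7.30 in CTCF-KD cultures. It was at a median of 0 TPM in shLuc #1 (0 to 310) and 86.5 in shLuc #2 (0 to 716), against 37.9 in shCTCF #1 (0 to 273) and 210 in shCTCF #2 (17.9 to 536). The mean was 38.6 TPM in shLuc #1 and 69.4 in shCTCF #1, but 156 in shLuc #2 and 227 in shCTCF #2. Both cultures of experiment 2 were thus above both of experiment 1, and each CTCF-KD culture was above the WT culture of its own experiment. The difference was 0.83 in experiment 1 and 0.53 in experiment 2, or 0.68 ± 0.81 (SE) together, with an adjusted p of 0.879 by limma. With the experiment as a block, the adjusted p by limma was 0.400. The sign turned without shLuc #1 (-0.31) or without shCTCF #2 (-0.16), and the difference was 1.68 without shLuc #2 and 1.53 without shCTCF #1.

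Snhg8 (chromosome 3, 123507552 to 123508336, minus strand) was read in few cells. Its median was 0 TPM in each culture, its highest cells were at 131, 364, 162 and 290 TPM in shLuc #1 and #2 and then shCTCF #1 and #2, and its means were 27.6, 61.03, 32.9 and 49.1 TPM. These rest on 11, 20, 12 and 10 reads, so the cultures could not be told apart at this depth. The difference was 0.25 in experiment 1 and -0.31 in experiment 2, or -0.03 ± 0.58 (SE) together, with an adjusted p of 0.998 by limma. The sign turned without shLuc #2 (0.53) or without shCTCF #1 (0.25).

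**Figure D2:**
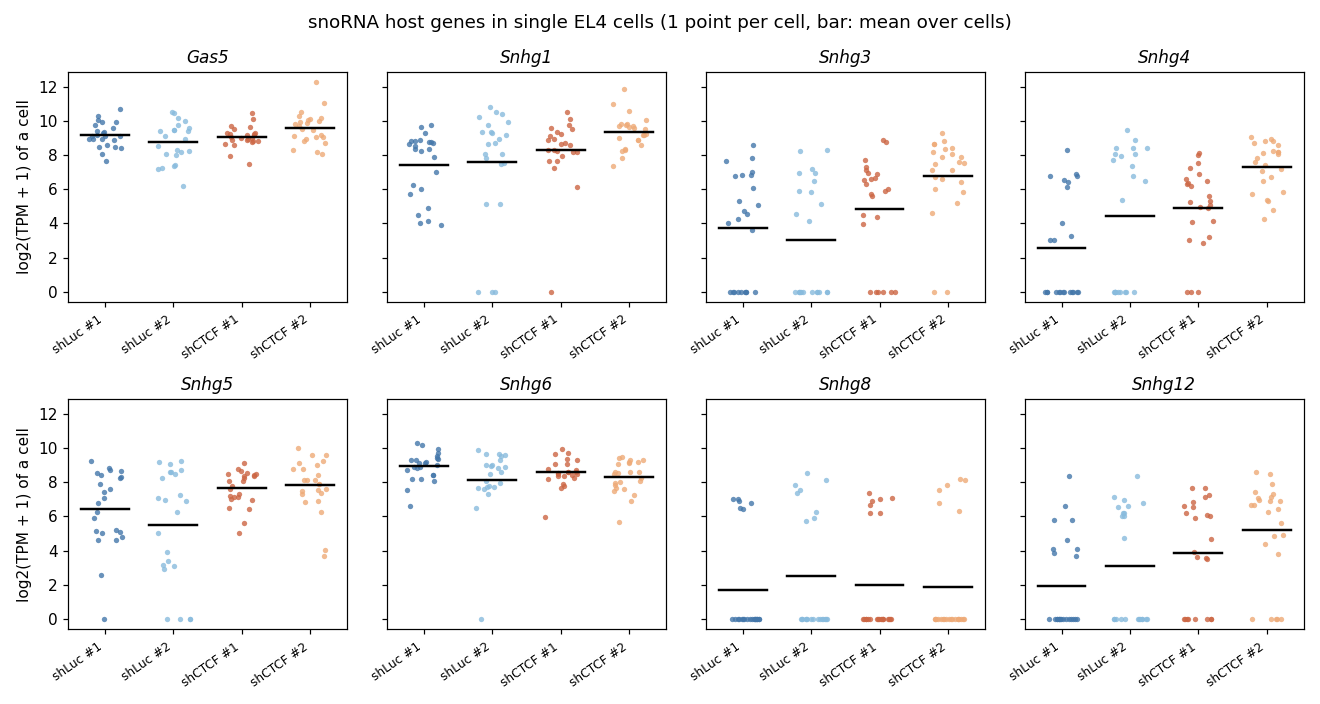
Level of each host gene as log2(TPM + 1), with 1 point per kept cell and a bar at the mean over the cells of a culture. Gas5 has no cell at 0, whereas Snhg3, Snhg4, Snhg8 and Snhg12 show a band of cells at 0 in the WT cultures, and for Snhg4 that band is empty in shCTCF #2.

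In counts over the 8 hosts, the CTCF-KD cultures both exceeded the WT pair for 3 (Snhg3, Snhg5 and Snhg12), beside 19.9% of all genes tested, and below them for 0, beside 16.9%. The median difference of the 8 was 0.62 on the log2 scale, beside 0.04 for all genes tested. Per experiment the median of the 8 was 0.51 and 0.70. With the mean over cells of log2(TPM + 1) in place of the log of the mean, the differences were larger for Snhg1 (1.31), Snhg3 (2.43), Snhg4 (2.64), Snhg5 (1.76) and Snhg12 (1.996), and that of all genes was 0.23 in the median. No host passed on that scale, with a smallest adjusted p of 0.135 by limma, while 46 of all genes did. Summed over the hosts, the mean level was 1855 and 2042 TPM for WT and 1978 and 3102 TPM for CTCF-KD. The conditions overlapped, since shCTCF #1 lay between the WT cultures. The highest cell of shCTCF #2, also its highest in Gas5 and Snhg1, summed to 10083 TPM.

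**Figure D3:**
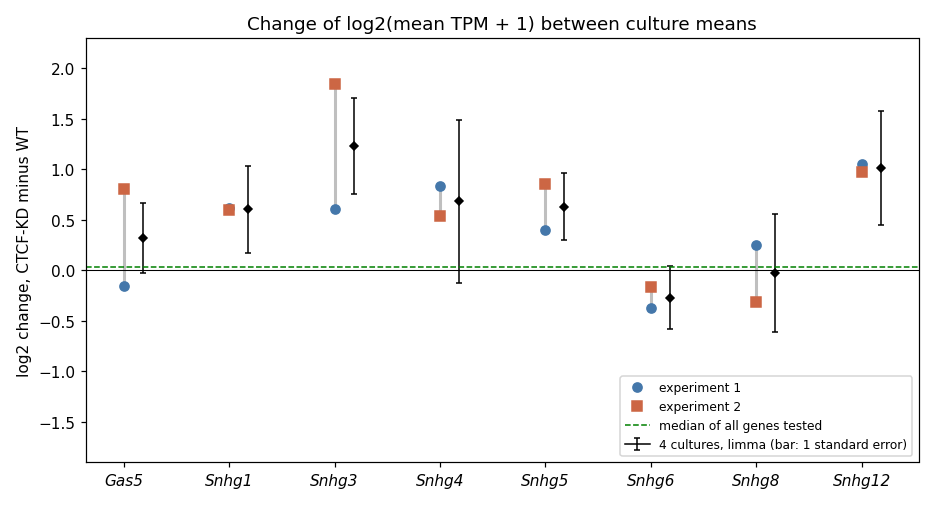
Difference between CTCF-KD and WT in log2(mean TPM + 1) for each host, in experiment 1 (circles), in experiment 2 (squares) and for the 4 cultures together (diamonds, bars of 1 SE by limma), with the median of all genes tested as a dashed line. Gas5 and Snhg8 have a different sign in each experiment, Snhg6 is negative in both, and the other 5 are positive in both.

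The share of cells with any read was higher in both CTCF-KD cultures for Snhg3, Snhg4, Snhg5 and Snhg12. Snhg4 was read in 45.8% of cells in shLuc #1 (11 of 24, exact 95% binomial interval 25.6% to 67.2%) and 56.5% in shLuc #2 (13 of 23, 34.5% to 76.8%). It was read in 87.5% of cells in shCTCF #1 (21 of 24, 67.6% to 97.3%) and 100% in shCTCF #2 (24 of 24, 85.8% to 100%). The intervals cover counting error only. Shares in both CTCF-KD cultures exceeded those of WT, by 42.6 percentage points on average. In cells that had reads, the median was 83.1 and 268 TPM for WT and 48.5 and 210 TPM for CTCF-KD, lower after knockdown in each experiment. The mean Snhg4 over all cells was higher after knockdown in each, as given above. Cells with reads made up a different share of each culture, so these medians compare unlike subsets of cells.

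Snhg3 was read in 62.5% and 47.8% of WT cells and in 75% and 91.7% of CTCF-KD cells, a difference of 28.2 points. Snhg12 was read in 37.5% and 47.8% of WT cells and in 66.7% and 79.2% of CTCF-KD cells, a difference of 30.3 points. Snhg5 was read in 95.8% and 82.6% of WT cells and in every CTCF-KD cell, a difference of 10.8 points. For these 4 hosts the exact permutation p was 0.333, the smallest that the design allows. Snhg8 was read in 25% and 34.8% of WT cells and 29.2% and 25% of CTCF-KD cells. Snhg1 and Snhg6 were near 100% in all cultures, with shLuc #2 lowest at 86.96% and 95.7%.

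More genes of any kind were read in CTCF-KD cells, and the part of this in the shares above was not tested. Per cell, a median of 4771 and 4635 genes was read for WT and 6173 and 5656 for CTCF-KD, and 4171, 3943, 5245 and 5223 after each cell was thinned to 80000 reads, which left out 1 shCTCF #2 cell. Over all genes tested, 36.2% had a higher share of cells in both CTCF-KD cultures and 5.96% a lower one. The 4 of 8 hosts that were higher, and the 0 that were lower, stand beside those shares. After thinning, 5 of 8 hosts were higher in both CTCF-KD cultures, Snhg1 now among them, beside 38.6% of genes. Thinned shares for Snhg4 were 37.5%, 56.5%, 66.7% and 100%, and for Snhg3 33.3%, 39.1%, 58.3% and 86.96%, with WT first and culture 1 before culture 2. A median of 6 of the 8 hosts was read per cell in each WT culture and 7 in each CTCF-KD culture. All 8 were read in 0 and 3 cells of the WT cultures and in 4 and 6 cells of the CTCF-KD cultures.

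**Figure D4:**
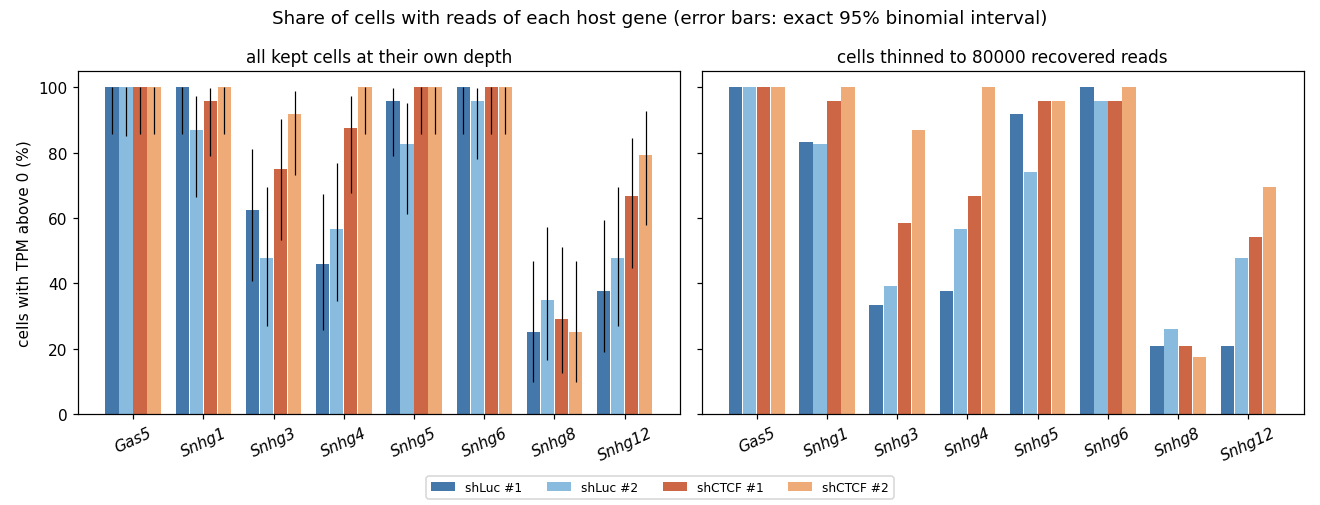
Percentage of kept cells with TPM above 0 for each host in the 4 cultures, at the depth of each cell (left, with exact 95% binomial intervals) and after thinning to 80000 reads (right). Snhg3, Snhg4, Snhg5 and Snhg12 are higher in both CTCF-KD cultures in either panel, Gas5 is at 100% throughout, and Snhg8 is at 34.8% or lower.

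Variation between cells was measured as the study did, by the coefficient of variation (CV, the SD divided by the mean) of log2(TPM + 1) among all cells of a condition. A gene was called where its difference in CV departed from the average difference of 7843 genes by over 1 SD. This is a rule without a test. None of the 8 hosts was called, beside 11.3% of genes called decreased and 7.68% called increased. Gas5 had the lowest CV of the 8, 0.110 in WT cells and 0.0897 in CTCF-KD cells. Snhg6 followed at 0.181 and 0.103.

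With cultures pooled, the CV was lower in CTCF-KD cells for 7 of the 8 hosts, beside 81.5% of the 7843 genes. Taken by experiment, Snhg6 differed by 0.0016 in experiment 1 and -0.133 in experiment 2 and Snhg8 by -0.175 and 0.359, whereas the other 6 were lower in both. It went from 0.359 to 0.188 for Snhg1, 0.474 to 0.169 for Snhg5, 0.962 to 0.499 for Snhg3 and 1.23 to 0.671 for Snhg12. Snhg4 went from 1.06 to 0.375, and its difference of -0.684 fell just inside the limit of -0.685. Snhg8 had a CV of 1.57 before and 1.67 after knockdown, a difference of 0.102 against a limit of 0.127. With the SD of log2(TPM + 1) in place of the CV, Snhg1, Snhg4 and Snhg5 passed the rule as decreased, beside 13.2% of genes. The share of cells with reads moved with the CV of Snhg3, Snhg4, Snhg5 and Snhg12, as given above, and its part in the CV was not tested.

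Within a culture the 8 hosts varied together only weakly. Spearman's rho over cells, averaged over the 4 cultures, had a median of 0.126 over the 28 pairs, from -0.015 to 0.373 (Snhg5 with Snhg12). It was above 0 for 25 pairs, but no background over other pairs of genes was taken. Cells of a culture share their circuit but differ in depth, for example from 41591 to 271300 reads in shCTCF #2. The part of this in rho was not tested, and these values are a description. The gene most like Gas5 over cells was 2410006H16Rik, itself a noncoding snoRNA host, with a mean rho of 0.503 among 2653 genes (0.7, 0.575, 0.254 and 0.483 in shLuc #1 and #2 and then shCTCF #1 and #2). It was followed by Mcl1 (0.393), an apoptosis inhibitor, the ribosomal protein gene Rpl41 (0.370), and, among the next ranks, Tnnt1 (0.359), a troponin gene. Of the hosts, Snhg1 had rank 9 at 0.353, Snhg6 rank 41, Snhg4 rank 58, Snhg5 rank 80 and Snhg3 rank 961. Snhg8 and Snhg12 were not ranked. Gas5 level had a rho between -0.411 and 0.328 in the 4 cultures with the number of genes read in a cell, and between -0.062 and 0.043 with its reads.

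Other genes of the snoRNA pathway were described from lists. For each, the counts of genes higher or lower in both CTCF-KD cultures stand beside 19.9% higher and 16.9% lower among all genes tested, and the median difference beside 0.04 for all genes tested, or 0.04 in experiment 1 and 0 in experiment 2. Of 10 further noncoding hosts tested, the CTCF-KD cultures both exceeded the WT pair for 5 and below for 1, and the median difference was 0.83, or 0.42 and 0.85 in experiments 1 and 2. The most abundant of these, 2410006H16Rik, was at 3608 and 1698 TPM in WT and 2248 and 1469 TPM in CTCF-KD cultures, without separation of the conditions. 1110038B12Rik was at 206 and 202 TPM in WT and 334 and 395 TPM in CTCF-KD cultures. Snhg7 was at 50.8 and 22.5 TPM in WT and 56.3 and 120 TPM in CTCF-KD cultures, and Snhg9 at 36.2 and 26.9 against 62.9 and 92.6 TPM.

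Of 8 core proteins of snoRNA particles, 7 were higher in both CTCF-KD cultures and 0 lower, beside 19.9% and 16.9% of all genes. The median difference was 1.30, or 1.38 and 1.33 in experiments 1 and 2. Nhp2, of the H/ACA particle, was at 418 and 370 TPM in WT and 921 and 834 TPM in CTCF-KD cultures. Nop56, of the C/D particle, was at 187 and 368 against 580 and 772 TPM. Nop10 was at 401 and 366 against 515 and 558 TPM, and Dkc1, the pseudouridine synthase, at 65.7 and 80.9 against 218 and 502 TPM. None passed limma, with adjusted p from 0.585 (Nhp2, Nop56 and Dkc1) to 0.953 (Fbl).

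Protein-coding hosts, mostly ribosomal protein and translation genes, gave 10 of 37 higher and 3 lower in both CTCF-KD cultures, again beside 19.9% and 16.9% of all genes, with a median difference of -0.02. This list shares genes with the core proteins above, such as Nop56 and Dkc1, which are among the 10. The most abundant, Rack1, was at 6947, 6688, 6839 and 5583 TPM in shLuc #1 and #2 and then shCTCF #1 and #2. Of 78 snoRNA entries tested, 18 were higher, a share near the 19.9% of all genes, and 4 were lower, with a median of 0.61 that was 0 in experiment 1 and 0.65 in experiment 2. Of 15 genes of nonsense-mediated decay, the route that degrades spliced host RNA, 5 were higher and 3 lower, with a median of 0.57 that was 0.39 in experiment 1 and 0.0086 in experiment 2. Of 6 other long noncoding RNAs tested, 0 were higher and 1 lower, which was Neat1 at 201 and 168 TPM in WT and 21.3 and 47.7 TPM in CTCF-KD cultures. By limma none of these genes passed.

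Protein-coding genes that overlap a host or lie within 10 kb of it were 11, of which 10 were tested. The CTCF-KD cultures both exceeded the WT pair for 4 and fell below it for 2, beside 19.9% and 16.9% of all genes. Rcc1, a nucleotide exchange factor for Ran, lies near Snhg3 and was at 6.36 and 11.04 TPM in WT and 33.2 and 86.6 TPM in CTCF-KD cultures. Wdr74, a ribosome assembly factor near Snhg1, was at 125 and 274 against 686 and 619 TPM. Rab42, near Snhg12, had no read in WT cells and was at 8.74 and 15.5 TPM after knockdown. Phactr4, also near Snhg3, was lower, at 7.12 and 26.3 against 6.22 and 2.99 TPM. Slc3a2 near Snhg1, Matr3 near Snhg4 and Trnau1ap near Snhg12 did not separate the conditions, with differences of -0.11, 0.15 and 0.70. The smallest adjusted p among these genes was 0.585 by limma.

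Gas5 overlaps Zbtb37 on the opposite strand, and Snhg6 overlaps Mcmdc2. The counting is not stated to use strand, so reads of overlapping stretches cannot be assigned to one gene or the other here. Zbtb37 and Mcmdc2 were at most 6.12 TPM, far below Gas5 and Snhg6.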

How the data were processed

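Cells of 4 EL4 cultures were isolated with the Fluidigm C1 and amplified by the SMARTer protocol. Per the study's methods, the authors aligned reads to GRCm38 (Ensembl annotation 89) with STAR 2.5.2, kept unique matches, counted them on 24057 genes with HTSeq 0.9.1 and deposited TPM, a unit that allows for the length of a gene and the reads of a cell.

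Here cells under 3000 genes were left out, the culture was the replicate, and limma (3.58.1, R 4.3.3, with a trend) was fitted to log2(mean TPM + 1) of 4 cultures for 11980 genes where 2 or more cells exceeded a log2(TPM + 1) of 1, with Benjamini-Hochberg adjustment. Differences understate the change of low genes. The rule for CV used genes with a mean log2(TPM + 1) above 1. TPM steps were turned into whole reads with, for each gene, a step that made all its values whole (tolerance 0.001 reads). The share of whole values, 100% of 504524, was set by that rule and is no check of the recovery. The scripts were tested on simulated data. The methods name no molecular identifiers, and intervals from reads cover counting error only. Nothing states that the cultures were independent beyond the experiments, so p-values measure the spread between these samples.

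The 8 hosts and all gene lists were chosen with earlier results of these data known. Named are the hosts, Ctcf, up to 4 members of a list by mean TPM, the genes most like Gas5 (top 5) and neighbours within 10 kb, and 2 genes under this rule are not reported here. Fbl was named after its values were seen. The number of a culture pairs the samples, since the methods give it as the experiment, and same-numbered cultures deviated together (correlation 0.275 across 7843 genes). The SEs and p-values by limma are from the fit without this pairing unless the block is named. Positions are from RefSeq (8 of 8 hosts matched) and GENCODE M21 (7 of 8). Alternatives covered the pseudocount, filters on genes and cells, the scale of the mean, scaling, thinning, the replicate block and leaving out each culture. Figures were drawn with matplotlib 3.10.9.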

Additional observations from a re-analysis of the deposited data

Results flagged for a closer look

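In 2 of the 8 hosts the WT and CTCF-KD cultures of experiment 1 differed in one direction and those of experiment 2 in the other. For Gas5 the log2 difference was -0.16 in experiment 1 and 0.80 in experiment 2, which lie 0.96 apart. For Snhg8 it was 0.25 and -0.31, a difference between experiments of -0.56. With 1 culture per condition in each experiment, the difference between experiments was not tested. Gas5 in shCTCF #2 was 811 TPM without its highest cell, still above the other cultures, and Snhg8 rested on 10 to 20 reads per culture.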

How the results depend on the processing

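No host passed limma's threshold under any of 13 alternatives, which gave 104 values for the 8 hosts, and 99 of these had the direction reported. The other 5 were leave-one-out fits that reversed, with ranges of -0.055 to 0.70 for Gas5 (lowest without shCTCF #2), -0.31 to 1.68 for Snhg4 (lowest without shLuc #1, and -0.16 without shCTCF #2) and -0.59 to 0.53 for Snhg8 (highest without shLuc #2, and 0.25 without shCTCF #1). Fits that leave 1 culture in a condition assume that it varies like the others. The smallest adjusted p among the hosts was 0.135, reached with the mean over cells of log2(TPM + 1). That scale gave differences of 1.31 for Snhg1, 2.43 for Snhg3, 2.64 for Snhg4, 1.76 for Snhg5 and 1.996 for Snhg12, moved the median of all genes from 0.04 to 0.23, and called 46 genes against 0. With the replicate block (pairing by experiment) 0 hosts passed, and the adjusted p by limma ran from 0.278 for Snhg1 to 0.988 for Snhg8. Snhg12 without the highest cell of each culture, an alternative chosen after seeing the data, gave 1.52. Hosts with decreased variation were 3 with the SD in place of the CV, and 0 to 1 when each culture was left out in turn. The 1 was Snhg4, without shLuc #2 or without shCTCF #1. Snhg8 passed as increased without shLuc #1 and in experiment 2 alone. The sign of the CV difference turned for Gas5 with linear TPM (0.293) and without shLuc #2 (0.0115), for Snhg6 in experiment 1 alone (0.0016) and without shLuc #2 (0.0098), and for Snhg8 in experiment 1 alone (-0.175), without shLuc #2 (-0.103) and with the SD (-0.056). At a pseudocount of 0.1, which moves the zero of the log scale, the CV difference went to -6.59 for Snhg12, -2.40 for Snhg4 and -1.81 for Snhg3, and the minimum mean left no value for Snhg8. Hosts read in a higher share of both CTCF-KD cultures were 4 to 6 under the alternatives. The 6, with Snhg1 and Snhg6 added, came only without shLuc #1, where shLuc #2 alone stood for WT. No share over all genes was taken for that setting. The cause of these shifts was not tested. Reads were fewest for Snhg8 among the 8 hosts, and the median depth per cell was lowest in shCTCF #2.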
